A study of Mus musculus with 9 samples.

Results

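Oxidative phosphorylation makes most of the ATP of a liver cell in the inner mitochondrial membrane. Complexes I and II feed electrons from NADH and succinate to coenzyme Q, complex III passes them to cytochrome c, complex IV hands them to oxygen, and complex V, the ATP synthase, uses the proton gradient that complexes I, III and IV build. A few subunits are encoded by mitochondrial DNA, and the others, described here, by nuclear genes whose proteins are imported. The genes were chosen by name from the array's annotation: the Ndufa, Ndufb, Ndufc, Ndufs and Ndufv genes of complex I, Sdha to Sdhd of complex II, Cyc1 and the Uqcr genes of complex III, the Cox4i to Cox8 genes of complex IV and the Atp5 genes of complex V, without pseudogenes. This gave 79 of the 22180 genes measured, of which 33 belong by name to complex I, 4 to complex II, 8 to complex III, 17 to complex IV and 17 to complex V. Ndufa4 is counted with complex I by its name, although its protein is known as a subunit of complex IV. Under the same name rule 91 genes are annotated in RefSeq. Of the others, 8 share every probe set with a further symbol (Cox6c, Ndufb2, Ndufb4, Ndufb4b, Ndufb4c, Ndufs6, Ndufs6b and Uqcr10). These 8 and the remaining 4 were not analysed here.

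Liver RNA came from C57BL/6 mice (the strain entry reads C56BL/6J) that were 5 weeks old at the start. There were 3 groups of 3 arrays: a regular diet (RD), a high-fat diet (HFD), and a high-fat diet with an extract of ginseng flower buds (GFB) at 500 mg/kg, given by mouth once a day for 12 weeks, while the other mice received vehicle. All livers were taken after an overnight fast, so every group was fasted. Each probe set has a log2 value that the authors normalized with RMA, and the array medians over genes lay between 4.72 and 4.77. The labels do not say that each array is a separate mouse, nor the sex of the mice, and p-values therefore measure the spread between these samples. The labelled tissue was checked on hepatocyte markers, and 9 of 9 had a mean above the median gene mean of 4.74. In whole liver, fewer cells of a type and less RNA per cell cannot be told apart.

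Short core promoters with sites for general regulators of respiration are a known feature of these genes. RefSeq start sites on GRCm38.p6 were matched for 64 of the 79 genes (69 promoters of 250 bases before and 50 after the start). Both strands were searched for 4 motifs, and no match of a motif overlapped one of another motif. The letters GCGCATGCG, bound by NRF1, lay in 8 of 69 promoters (11.6%), against 1.75% of the 32851 promoters of all genes. CGGAAG, the core bound by ETS factors such as GABPA, lay in 29 (42%, against 16.9%), and AAGATGGC, bound by YY1, in 9 (13%, against 2.75%). AAGGTCA, the core bound by estrogen-related receptors, lay in 6 (8.70%, against 4.72%). A match describes the letters only. The 250 bases before the start site are shown for Cox5a, the gene that passed the test on the high-fat diet, for Uqcrh and Ndufb7, which were among the nearest below it, and for Cox6a1, which lay higher. They were picked after the values were seen, among genes with a match in the window, and capitals mark the matches.
Cox5a (chr9:57520982-57521231, plus strand): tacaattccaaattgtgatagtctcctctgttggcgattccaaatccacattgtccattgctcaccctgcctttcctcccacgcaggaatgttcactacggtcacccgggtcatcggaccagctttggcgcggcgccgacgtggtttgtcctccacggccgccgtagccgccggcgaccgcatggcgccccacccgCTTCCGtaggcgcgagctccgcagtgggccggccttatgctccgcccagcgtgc
Uqcrh (chr4:116075071-116075320, minus strand): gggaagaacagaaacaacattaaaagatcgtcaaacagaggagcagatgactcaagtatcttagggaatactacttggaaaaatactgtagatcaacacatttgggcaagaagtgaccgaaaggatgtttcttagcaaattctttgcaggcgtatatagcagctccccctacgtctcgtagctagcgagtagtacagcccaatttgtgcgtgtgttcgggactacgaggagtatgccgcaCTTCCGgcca
Ndufb7 (chr8:83566508-83566757, plus strand): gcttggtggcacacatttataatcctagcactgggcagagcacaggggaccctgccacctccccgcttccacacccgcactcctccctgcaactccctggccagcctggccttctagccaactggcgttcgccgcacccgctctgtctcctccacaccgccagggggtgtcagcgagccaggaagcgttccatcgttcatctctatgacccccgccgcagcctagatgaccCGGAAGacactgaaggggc
Cox6a1 (chr5:115348959-115349208, minus strand): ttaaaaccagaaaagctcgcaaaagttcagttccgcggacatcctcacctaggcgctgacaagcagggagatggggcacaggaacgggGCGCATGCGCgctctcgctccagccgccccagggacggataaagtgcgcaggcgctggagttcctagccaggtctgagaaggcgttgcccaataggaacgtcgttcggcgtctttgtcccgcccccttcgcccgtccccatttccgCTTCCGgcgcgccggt

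The ETS core stood at positions -54 to -49 from the start site in Cox5a, at -10 to -5 in Uqcrh, at -19 to -14 in Ndufb7 and at -16 to -11 in Cox6a1. Cox6a1 also carried the NRF1 letters, on both strands of a palindrome, between positions -162 and -153. The ETS core was thus present in genes that were lower on the high-fat diet and in a gene that was higher. The median diet difference was -0.10 for the 28 genes with the ETS core and -0.09 for the 36 without it. For the 8 genes with the NRF1 letters it was -0.09, against -0.11 for the 56 without them. It was -0.08 for the 9 genes with the YY1 letters, against -0.10 for the other 55, and -0.12 for the 6 with the receptor core, against -0.09 for the other 58. These are descriptions with no test.

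The diet alone is described by the high-fat diet arrays against the regular-diet arrays. Most subunit genes lay slightly lower on the high-fat diet, while a few lay higher. Cox5a, a nuclear subunit of cytochrome c oxidase, fell 1.29-fold (log2 fold change -0.37 ± 0.07, adjusted p = 0.0443 with limma, n = 3 per group) and was the only member that passed, against 1.34% of all genes tested. Of the 79 genes 60 were lower and 19 higher, with a median log2 fold change of -0.10, and 49.9% of all genes tested were lower, with a median of 0.00. No member differed by as much as 1.5-fold. Here and below, ± after a difference is the standard error of the log2 fold change, and adjusted p-values are limma's, over all genes. At an unadjusted p under 0.05, 17 members were lower and 6 higher, together 29.1% of members against 13.3% of all genes. All 3 high-fat diet arrays lay below all 3 regular-diet arrays for 20 members, 25.3% of them against 7.86% of all genes, and above them for 7 members, 8.86% against 7.93%.

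**Figure D1:**
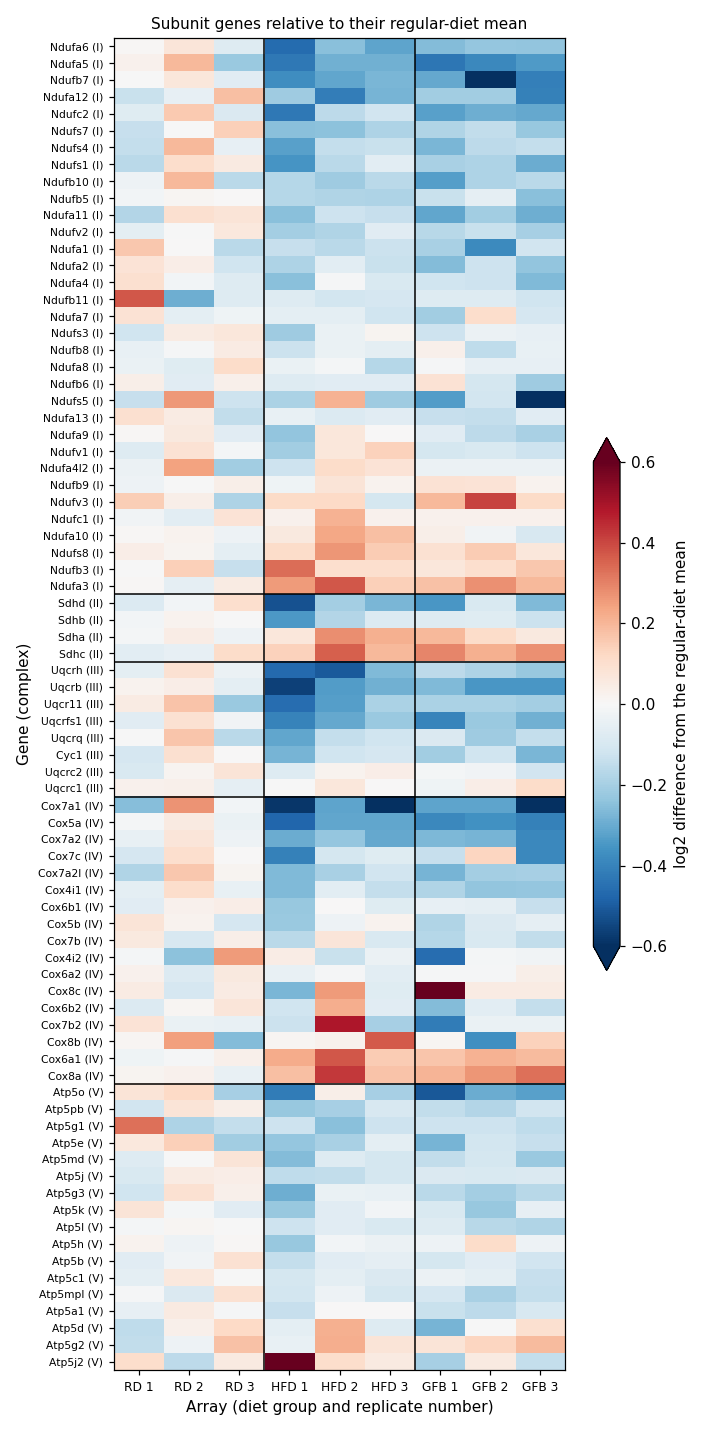
Each row is a subunit gene, grouped by complex and ordered by its diet difference, and each column an array; colour gives the log2 difference from the gene's regular-diet mean, which centres the regular-diet columns by construction. Every high-fat diet and extract array is blue over most rows, from 51 rows in high-fat diet replicate 2 to 66 in replicate 1. Sdha, Sdhc, Cox6a1, Cox8a, Ndufa3, Ndufs8, Ndufb3 and, faintly, Ndufc1 are red in every high-fat diet and extract array.

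The arrays themselves showed the size of this shift. The median member stood at -0.19, -0.06 and -0.09 from its regular-diet mean in high-fat diet replicates 1, 2 and 3, and at -0.14, -0.11 and -0.14 in extract replicates 1, 2 and 3. The median over all genes stood at 0.00 on the same scale in every array. High-fat diet replicate 1 was the lowest of its group for 56 of the 79 genes, replicate 2 for 9 and replicate 3 for 14. Without replicate 1 the median diet difference was -0.08 and 55 genes were lower, and without replicate 2 it was -0.13 and 65 genes were lower.

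Cox5a read 9.34, 9.41 and 9.32 in the regular-diet arrays, 8.88, 9.04 and 9.04 in the high-fat diet arrays and 8.97, 8.99 and 8.95 in the extract arrays. The regular-diet arrays were the highest without overlap, and the other groups overlapped. Its call sat at the edge of the threshold. It did not pass when any 1 of the 9 arrays was left out, with log2 fold changes from -0.39 to -0.31 and adjusted p from 0.0664 to 0.145, nor in a fit of only the 6 arrays compared (adjusted p = 0.134).

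Complex III showed the lowest median of the complexes, -0.25 over 8 genes, of which 7 were lower and none passed (4 had an unadjusted p under 0.05, all lower, against 13.3% of all genes). Uqcrh, the hinge protein near cytochrome c1, read 7.56, 7.71 and 7.59 on the regular diet, 7.15, 7.12 and 7.36 on the high-fat diet and 7.46, 7.44 and 7.40 with extract (-0.41 ± 0.08, adjusted p = 0.0533 for the diet). Its 3 groups did not overlap, and the extract arrays lay between the other groups. Uqcrb, a small subunit beside cytochrome b, read 11.06, 11.08 and 10.98 on the regular diet, 10.48, 10.71 and 10.75 on the high-fat diet and 10.77, 10.69 and 10.69 with extract (-0.39 ± 0.08, adjusted p = 0.0615). The Rieske iron-sulfur protein gene Uqcrfs1 read 7.23, 7.38 and 7.28 on the regular diet, 6.89, 6.99 and 7.07 on the high-fat diet and 6.90, 7.07 and 7.01 with extract (-0.31 ± 0.08, adjusted p = 0.125). Both had every high-fat diet array below every regular-diet array. Uqcr11, a small subunit, read 7.05, 7.17 and 6.77, then 6.54, 6.67 and 6.81, then 6.81, 6.81 and 6.79 in the order regular diet, high-fat diet and extract (-0.32 ± 0.11). Cyc1, which encodes cytochrome c1, read 8.22, 8.42 and 8.32, then 8.04, 8.20 and 8.22, then 8.11, 8.20 and 8.05 in that order (-0.17 ± 0.08). The diets overlapped for Uqcr11 and were apart for Cyc1 by less than the printed digits show, and these genes and the small subunit Uqcrq (-0.19 ± 0.10) did not pass (adjusted p from 0.222 to 0.449 with limma). The large core proteins, which face the matrix and carry no redox centre, stood near 0: Uqcrc1 read 9.73, 9.74 and 9.65 against 9.70, 9.78 and 9.71, a difference of 0.02 ± 0.07. Uqcrc2 differed by -0.01 ± 0.07, and the 95% intervals of these differences were -0.13 to 0.18 and -0.17 to 0.16.

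Complex II divided evenly, and no member passed, although all 4 had an unadjusted p under 0.05 (against 13.3% of all genes), 2 in each direction. Sdha, the flavoprotein that oxidises succinate, read 10.50, 10.55 and 10.48 on the regular diet, 10.58, 10.79 and 10.72 on the high-fat diet and 10.70, 10.62 and 10.57 with extract (0.19 ± 0.08, adjusted p = 0.336). Sdhb, the iron-sulfur subunit that takes its electrons, read 8.80, 8.84 and 8.81 on the regular diet, 8.47, 8.64 and 8.73 on the high-fat diet and 8.74, 8.74 and 8.69 with extract (-0.20 ± 0.08, adjusted p = 0.304). The diets did not overlap for either gene, and the directions were opposite. The membrane anchors did the same: Sdhc read 8.50, 8.51 and 8.67 on the regular diet, 8.70, 8.92 and 8.76 on the high-fat diet and 8.85, 8.77 and 8.83 with extract (0.23 ± 0.08, adjusted p = 0.26). Sdhd read 9.55, 9.61 and 9.73 on the regular diet, 9.10, 9.42 and 9.35 on the high-fat diet and 9.28, 9.54 and 9.36 with extract (-0.33 ± 0.11, adjusted p = 0.192). Subunits of this enzyme thus differed in opposite directions within the same arrays, although each difference was short of the threshold.

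**Figure D2:**
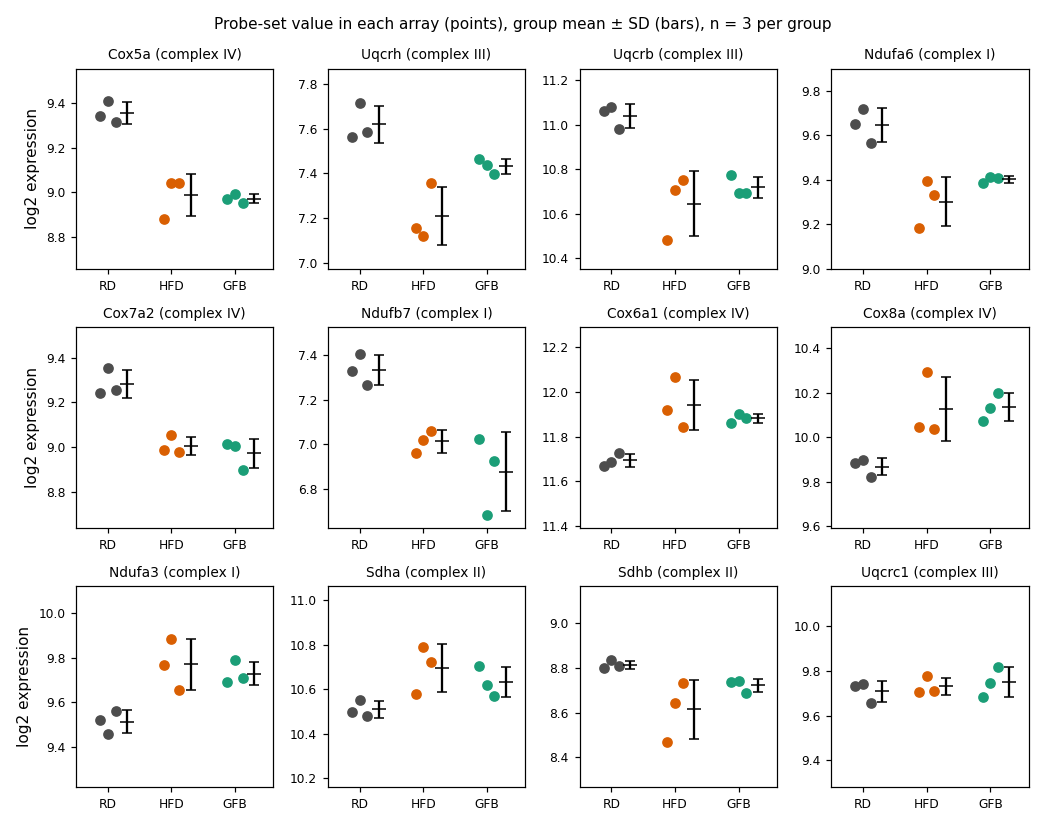
Log2 expression of 12 subunit genes in each array, by diet group (points), with the group mean and SD of 3 arrays beside them (bars); all panels span the same height in log2 units. Cox5a, Uqcrh, Uqcrb, Ndufa6, Cox7a2, Ndufb7 and Sdhb lay lower in all high-fat diet arrays than in all regular-diet arrays, Cox6a1, Cox8a, Ndufa3 and Sdha lay higher, and Uqcrc1 overlapped.

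Complex IV held Cox5a, the gene that passed, and also genes that were higher. Of its 17 members 12 were lower, with a median of -0.06, and at an unadjusted p under 0.05 there were 3 lower and 2 higher, against 13.3% of all genes. Cox7a2, the widely expressed isoform of subunit VIIa, read 9.24, 9.35 and 9.25 on the regular diet, 8.99, 9.05 and 8.98 on the high-fat diet and 9.02, 9.0 and 8.90 with extract (-0.28 ± 0.07, adjusted p = 0.103). Cox4i1, the widely expressed isoform of subunit IV, read 9.52, 9.68 and 9.53 on the regular diet, 9.31, 9.51 and 9.43 on the high-fat diet and 9.40, 9.34 and 9.35 with extract, with the diets apart (-0.16 ± 0.08, adjusted p = 0.441). Cox6a1, the liver isoform of subunit VIa, instead read 11.67, 11.69 and 11.73 on the regular diet, 11.92, 12.07 and 11.84 on the high-fat diet and 11.86, 11.90 and 11.88 with extract, 1.19-fold higher on the high-fat diet (0.25 ± 0.07, adjusted p = 0.163). Cox8a, the widely expressed isoform of subunit VIII, read 9.88, 9.90 and 9.82 on the regular diet, 10.05, 10.29 and 10.04 on the high-fat diet and 10.07, 10.13 and 10.20 with extract (0.26 ± 0.08, adjusted p = 0.214). Every high-fat diet array lay above every regular-diet array for both, and neither passed. Cox6b1, the widely expressed isoform of subunit VIb, read 8.98, 9.08 and 9.09, then 8.82, 9.05 and 8.98, then 9.0, 9.0 and 8.91 in the order regular diet, high-fat diet and extract. Cox7b read 8.77, 8.62 and 8.75, then 8.55, 8.79 and 8.62, then 8.54, 8.62 and 8.57. The diets overlapped for both (-0.10 ± 0.08 and -0.06 ± 0.08), as they did for Cox5b (-0.08 ± 0.09) and Cox7c (-0.19 ± 0.14). Cox7a2l, counted with complex IV by its name, read 7.25, 7.59 and 7.44, then 7.16, 7.23 and 7.31, then 7.15, 7.22 and 7.23. Its diet difference was -0.19 ± 0.09 (limma, adjusted p = 0.429).

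Most isoforms known from heart, skeletal muscle, brown fat, lung or testis were dim. Cox4i2, Cox6b2, Cox7b2, Cox8b and Cox8c all had a mean under the median gene mean of 4.74, where a signal is not told from background here, and their diet differences ran from -0.04 to 0.14 without passing. Over all 9 arrays Cox4i2 lay between 4.24 and 4.95, Cox6b2 between 3.99 and 4.47, Cox7b2 between 1.59 and 2.49, Cox8b between 3.08 and 3.82 and Cox8c between 2.67 and 3.65, and the diets overlapped for each. Cox6a2, the heart and muscle isoform of subunit VIa, read 5.13, 5.02 and 5.16 on the regular diet, 5.06, 5.09 and 5.04 on the high-fat diet and 5.09, 5.09 and 5.14 with extract and overlapped. Cox7a1, the heart, muscle and brown fat isoform of subunit VIIa, had the largest difference of any member in log2 terms, at a mean of 5.21, not far above the median gene mean. It read 5.29, 5.81 and 5.52 on the regular diet, 4.96, 5.22 and 4.94 on the high-fat diet and 5.22, 5.22 and 4.73 with extract (-0.50 ± 0.17, adjusted p = 0.226). Its high-fat diet arrays lay below its regular-diet arrays by a margin as narrow as the step between 5.29 and 5.22. High-fat diet replicate 2 and extract replicates 1 and 2 held exactly equal values of this gene. Of the muscle markers 5 of 9 were under the median gene mean, Myh4, Myh6, Ckm and Tnnt3 among them, and the summed signal of the 9 (log2) ran from 7.85 to 7.88 on the regular diet and from 7.89 to 7.92 on the high-fat diet. Of the brown fat markers 3 of 5 were that dim, Ucp1, Cidea and Dio2, and the sum ran from 9.78 to 11.36 and from 9.64 to 10.53. Cox7a1 read at most 5.81, so this sum was mostly the remaining marker, Elovl3. On the diet the 5 brown fat markers differed by -0.50 to 1.44, with 2 higher and 3 lower, and none passed. Cox7a1 itself is on the brown fat list, and Cox6a2 and Cox8b are on the muscle list. The part of these markers in the Cox7a1 difference was not tested.

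Complex I, the largest member group, had 25 of 33 genes lower with a median of -0.08, and none passed. At an unadjusted p under 0.05, 7 were lower and 2 higher, against 13.3% of all genes. Its core subunits bind the flavin and iron-sulfur clusters, and 5 of the 6 measured were lower (median -0.11), as were 20 of the 27 accessory subunits (median -0.08). Ndufa6, an accessory subunit of the LYR family, read 9.65, 9.72 and 9.57 on the regular diet, 9.18, 9.39 and 9.33 on the high-fat diet and 9.38, 9.41 and 9.41 with extract (-0.34 ± 0.08, adjusted p = 0.0737). Ndufb7, an accessory subunit on the intermembrane side, read 7.33, 7.40 and 7.27 against 6.96, 7.02 and 7.06 (-0.32 ± 0.09, adjusted p = 0.161). Ndufa5, an accessory subunit of the matrix arm, read 6.79, 6.96 and 6.54 on the regular diet, 6.34, 6.48 and 6.48 on the high-fat diet and 6.33, 6.38 and 6.43 with extract (-0.33 ± 0.10, adjusted p = 0.187). In all 3 genes the diets were apart. Ndufa12, Ndufb5, Ndufc2, Ndufs7 and Ndufv2 were also lower without overlap, at -0.30 ± 0.10, -0.18 ± 0.07, -0.23 ± 0.10, -0.23 ± 0.08 and -0.15 ± 0.07, with adjusted p from 0.231 to 0.394. Of these, Ndufs7 and Ndufv2 are core iron-sulfur subunits.

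Ndufa3, an accessory membrane subunit, ran the other way and read 9.52, 9.46 and 9.56 on the regular diet, 9.77, 9.89 and 9.65 on the high-fat diet and 9.69, 9.79 and 9.71 with extract (0.26 ± 0.08, adjusted p = 0.175). Ndufs8, a core iron-sulfur subunit, read 8.82, 8.79 and 8.72 against 8.88, 9.04 and 8.93 (0.18 ± 0.07, adjusted p = 0.319). Ndufa10, an accessory subunit, read 9.62, 9.64 and 9.58 against 9.67, 9.85 and 9.79 (0.16 ± 0.07, adjusted p = 0.405). These 3 genes were higher in every high-fat diet array without passing. Ndufa4 read 10.75, 10.63 and 10.57 on the regular diet, 10.40, 10.64 and 10.56 on the high-fat diet and 10.53, 10.53 and 10.39 with extract, a diet difference of -0.12 ± 0.09. Its paralog Ndufa4l2 read 4.77, 5.04 and 4.6, then 4.68, 4.91 and 4.89, then 4.77, 4.77 and 4.77 in that order (0.02 ± 0.11). The diets overlapped for both genes, and neither passed (limma, adjusted p = 0.632 and 0.961). The core subunits Ndufs1 (-0.19 ± 0.10), Ndufs3 (-0.08 ± 0.09) and Ndufv1 (-0.00 ± 0.10) overlapped between the diets.

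The ATP synthase, complex V, had no gene past the threshold. Of its 17 genes 14 were lower, with a median of -0.10, and 1 had an unadjusted p under 0.05, against 13.3% of all genes. That gene was Atp5pb, the b subunit of the peripheral stalk, at 9.66, 9.85 and 9.81 on the regular diet, 9.54, 9.57 and 9.67 on the high-fat diet and 9.62, 9.60 and 9.66 with extract (-0.18 ± 0.08, adjusted p = 0.356). The diets overlapped for it by a narrow margin. The catalytic beta subunit gene Atp5b read 11.85, 11.89 and 12.01 on the regular diet, 11.77, 11.85 and 11.86 on the high-fat diet and 11.81, 11.85 and 11.80 with extract (-0.09 ± 0.07), and the alpha subunit gene Atp5a1 differed by -0.04 ± 0.07. Of the 5 genes of the catalytic head and central stalk 4 were lower (median -0.08), as were all 4 of the peripheral stalk (median -0.16). Atp5j, a stalk subunit, read 6.28, 6.42 and 6.41 on the regular diet, 6.22, 6.22 and 6.26 on the high-fat diet and 6.28, 6.28 and 6.28 with extract (-0.13 ± 0.07 for the diet). Atp5l, subunit g, read 9.10, 9.13 and 9.11, then 8.99, 9.05 and 9.02, then 9.04, 8.95 and 8.93 in that order (-0.10 ± 0.06). The diets did not overlap for either. Atp5md, a small membrane subunit, read 10.56, 10.64 and 10.72, then 10.38, 10.56 and 10.53, then 10.49, 10.53 and 10.42, with overlap (-0.15 ± 0.08). Atp5g1, Atp5g2 and Atp5g3 encode the same mature c subunit of the rotor ring. Their differences were -0.17 ± 0.13, 0.08 ± 0.10 and -0.13 ± 0.09, and only Atp5g2 was higher.

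**Figure D3:**
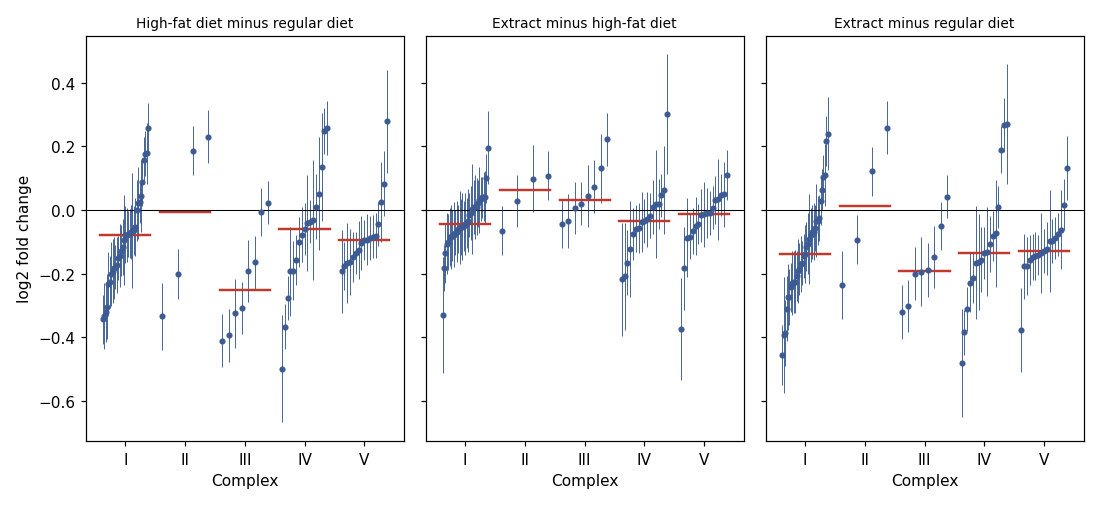
Log2 fold change with its standard error for each subunit gene (points, ordered within a complex) in the 3 comparisons, and the median of each complex (red lines). In the left panel the median of complex III lies lowest at -0.25 and complex II divides evenly around 0; in the middle panel the complex medians lie between -0.04 and 0.06.

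Signal brightness of different probe sets is not a measure of relative abundance, so only its range is given. Ndufb9, a complex I accessory subunit and the brightest of its complex, read 11.05, 11.07 and 11.11 on the regular diet, 11.05, 11.15 and 11.10 on the high-fat diet and 11.16, 11.16 and 11.10 with extract, with overlap. Mean levels ran from 3.57 for Ndufs5 to 11.11 for Ndufb9 in complex I, from 8.72 for Sdhb to 10.61 for Sdha in complex II and from 6.82 for Uqcr11 to 10.80 for Uqcrb in complex III. They ran from 1.97 for Cox7b2 to 11.84 for Cox6a1 in complex IV and from 4.07 for Atp5j2 to 11.86 for Atp5b in complex V. In all 7 members lay under the median gene mean, namely the 5 dim complex IV isoforms with Ndufs5 and Atp5j2, whose proteins are standard subunits. Many of these genes have processed pseudogenes of near-identical sequence, so the assignment of signal to the named gene is uncertain. For the 9 members with a further probe set of their own, the less bright set had the same sign of the diet difference in 9 of 9, for example -0.43 beside -0.30 for Ndufa12, although near-zero pairs such as Atp5d (0.02 and 0.00) are among them. For extract against the high-fat diet the signs were opposite for Atp5d, Atp5e, Atp5h, Cox7b and Ndufa8 and the same for the others. Atp5h stood at 0.11 and -0.07 there, and Cox7b at -0.08 and 0.21.

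Whether the extract changed these genes on the same fat-rich food is read from GFB against HFD. No member passed (limma, adjusted p from 0.787 upward), against 0.00451% of all genes tested, which is 1 gene. At an unadjusted p under 0.05 there were 3 members (3.80%, against 5.98% of all genes), of which 1 was higher and 2 lower. Of the 79 members 46 were lower and 33 higher, with a median of -0.02 against 0.00 over all genes. The count depended on single arrays, with 58 lower and a median of -0.05 without high-fat diet replicate 1, and 39 lower and a median of 0.00 without replicate 2. The extract arrays lay entirely above the high-fat diet arrays for 2 members, Uqcrh and Atp5j (2.53%, against 4.42% of all genes), and entirely below for 1, Ndufa10 (1.27%, against 5.27%).

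Uqcrh was higher with extract by 0.22 ± 0.08 (adjusted p = 0.787, 95% interval 0.03 to 0.41), with all 3 extract arrays above all 3 high-fat diet arrays and below all 3 regular-diet arrays. Ndufa10 was lower by the same test (-0.18 ± 0.07, adjusted p = 0.802), reading 9.65, 9.59 and 9.52 with extract. Atp5j2, the f subunit of the ATP synthase, read 4.68, 4.11 and 4.06 on the high-fat diet and 3.81, 4.06 and 3.86 with extract (-0.37 ± 0.16, adjusted p = 0.824), and high-fat diet replicate 1 stood above its other arrays at a signal under the median gene mean. Cox5a did not move between these groups by more than its spread (-0.02 ± 0.07, 95% interval -0.18 to 0.14). For Uqcrb the difference was 0.07 ± 0.08, for Cox7a2 -0.03 ± 0.07, for Ndufb7 -0.14 ± 0.09 and for Ndufa6 0.10 ± 0.08. Ndufs5, an accessory subunit at a dim signal, read 3.53, 3.93 and 3.51 on the high-fat diet and 3.38, 3.61 and 2.99 with extract (-0.33 ± 0.18), after 3.58, 3.98 and 3.6 on the regular diet. Ndufv3, an accessory subunit beside the flavin site, read 6.84, 6.84 and 6.62 and 6.92, 7.13 and 6.84 (0.20 ± 0.11), after 6.87, 6.76 and 6.54. Atp5h, the d subunit of the stalk, read 10.46, 10.67 and 10.65 and 10.66, 10.80 and 10.66 (0.11 ± 0.08), after 10.71, 10.66 and 10.70. The extract and high-fat diet arrays overlapped for all 3. The less bright probe set of Atp5h differed by -0.07. By complex the medians were -0.04 for complex I, 0.06 for II, 0.03 for III, -0.03 for IV and -0.01 for V. All 4 measured small subunits of complex III were higher (median 0.10), but without high-fat diet replicate 1 only 2 of 4 were (median 0.03). In complex I, 17 of 27 accessory subunits were lower (median -0.05). For all 72 members at or above the median gene mean, the 95% intervals of the extract difference lay between -0.48 and 0.45.

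**Figure D4:**
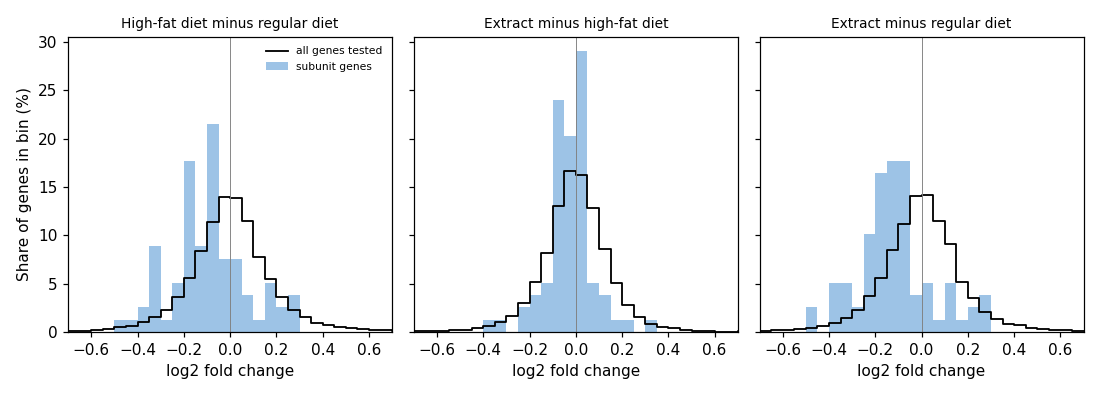
Share of genes in bins of 0.05 log2 units for the subunit genes (blue bars) and all genes tested (black line) in the 3 comparisons. The subunit genes centre below 0 in both comparisons with the regular diet (medians -0.10 and -0.14) and near 0 for extract against the high-fat diet (median -0.02).

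Extract-treated livers were also set against the regular diet. This comparison shares its regular-diet arrays with the diet comparison, so the results are not independent of it. No member passed (limma), against 0.442% of all genes, and 26 members had an unadjusted p under 0.05 (32.9%, against 12.1% of all genes), 22 lower and 4 higher. Of the 79 members 64 were lower, with a median of -0.14, and 49.6% of all genes were. The extract arrays lay entirely below the regular-diet arrays for 30 members (38%, against 7.62% of all genes) and entirely above for 6 (7.59%, against 7%). The smallest adjusted p belonged to Cox5a (-0.38 ± 0.07, adjusted p = 0.0657), then to Ndufb7 (-0.46 ± 0.09, adjusted p = 0.093) and Cox7a2 (-0.31 ± 0.07, adjusted p = 0.116). Ndufb7 read 7.02, 6.68 and 6.92 with extract, and replicate 2 was its lowest array. The 6 members entirely above were Cox6a1 (0.19 ± 0.07), Cox8a (0.27 ± 0.08), Ndufa3 (0.22 ± 0.08), Ndufs8 (0.10 ± 0.07), Sdha (0.12 ± 0.08) and Sdhc (0.26 ± 0.08). In complex V 15 of 17 genes were lower (median -0.13), with Atp5a1, Atp5g3, Atp5l, Atp5md, Atp5mpl and Atp5o entirely below. Atp5mpl, a small membrane subunit, read 8.77, 8.69 and 8.87 on the regular diet, 8.67, 8.75 and 8.68 on the high-fat diet and 8.68, 8.58 and 8.64 with extract (-0.15 ± 0.07). Atp5o, the stalk subunit known as OSCP, read 5.25, 5.29 and 4.97 on the regular diet and 4.66, 4.87 and 4.85 with extract (-0.38 ± 0.13, adjusted p = 0.293). In complex I 27 of 33 were lower (median -0.14), in complex IV 13 of 17 (median -0.14), in complex III 7 of 8 (median -0.19) and in complex II 2 of 4 (median 0.01).

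Other genes of the pathway were read from lists of assembly factors, carriers, the citric acid cycle and regulators. None passed in any of the 3 comparisons. The 10 measured subunits encoded by mitochondrial DNA had a median diet difference of -0.02, with 8 lower and none at an unadjusted p under 0.05, and COX3 had the smallest p (-0.10 ± 0.06, adjusted p = 0.573). The means of these 10 ran from 10.58 for ND6 to 13.51 for ND4, beside 13.53 for the hepatocyte marker Alb. Whether probe sets this bright can show a shift was not tested. An unadjusted p under 0.05 for the diet was reached by 13.3% of all genes. Among the assembly factors it was reached by 1 of 15 for complex I (Tmem126b, -0.28 ± 0.10) and 1 of 4 for complex II (Sdhaf4, -0.32 ± 0.10). For complexes III, IV and V it was reached by 0 of 6, 2 of 18 and 0 of 4. The 2 were Cox18, an insertase (0.49 ± 0.13, adjusted p = 0.117), and Coa3 (-0.24 ± 0.06, adjusted p = 0.127), in opposite directions. The list medians lay between -0.06 for complex II and 0.05 for complex V. Against the regular diet, Coa3 with extract stood at -0.32 ± 0.06, adjusted p = 0.0883. With extract on the high-fat diet the corresponding medians were -0.09, 0.07, -0.07, -0.06 and -0.09 for complexes I to V.

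Cycs, which encodes the cytochrome c that carries electrons from complex III to IV, read 10.28, 10.57 and 10.62 on the regular diet, 10.10, 10.13 and 10.30 on the high-fat diet and 10, 10.01 and 9.86 with extract. Its difference was -0.31 ± 0.10 for the diet (adjusted p = 0.219) and -0.54 ± 0.10 for extract against the regular diet (adjusted p = 0.0778). The extract arrays were the lowest of all 9, but the difference from the high-fat diet did not pass (-0.22 ± 0.10, limma, adjusted p = 0.838). Over the 13 measured genes of cytochrome c and coenzyme Q synthesis the diet median was 0.05, with 1 higher and 2 lower at an unadjusted p under 0.05, a level that 13.3% of all genes reached. Among the 9 other donors of electrons to coenzyme Q there were 2 higher and 4 lower at that level, with Etfb, a subunit of the flavoprotein that takes electrons from beta-oxidation, at -0.39 ± 0.09, adjusted p = 0.0744 and Prodh, proline dehydrogenase, at 0.52 ± 0.12, adjusted p = 0.0873. Among the 17 citric acid cycle genes there were 3 higher and 4 lower at the same level (median -0.15). Fh1, fumarase, had the lowest of these differences and a wide error (-0.83 ± 0.23, adjusted p = 0.132). Cs, citrate synthase, was at 0.55 ± 0.13, adjusted p = 0.0782 and Suclg1, a subunit of succinyl-CoA ligase, at -0.38 ± 0.10, adjusted p = 0.128. The 5 measured uncoupling and adenine nucleotide carriers had a median of 0.00 and none at that level.

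Of the 16 measured regulators of mitochondrial gene expression, 15 were lower on the high-fat diet (median -0.14), against 49.9% of all genes. At an unadjusted p under 0.05 there were 5 of them, against 13.3% of all genes, and none passed the threshold. Ppargc1a, the coactivator PGC-1 alpha that drives transcription of respiratory genes and is induced by fasting in liver, read 6.71, 8.11 and 7.24 on the regular diet, 6.05, 6.67 and 6.22 on the high-fat diet and 6.48, 6.51 and 6.10 with extract. The regular-diet arrays were the highest and also the most spread (-1.04 ± 0.31, adjusted p = 0.17), with replicate 1 only just above the highest high-fat diet array. Tfam, which packages mitochondrial DNA and takes part in its transcription, stood at -0.24 ± 0.08, adjusted p = 0.224 (limma) for the diet. With extract on the high-fat diet, 10 of the 16 regulators were higher (median 0.04), and Ppargc1a differed by 0.05 ± 0.31. In that comparison none of the lists other than the assembly factors of complexes I and IV had a gene at an unadjusted p under 0.05. Those 2 had 1 each, Nubpl (-0.30 ± 0.11, adjusted p = 0.758) and Taco1 (-0.17 ± 0.07, adjusted p = 0.818), both lower. That level was reached by 5.98% of all genes.

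Markers of the cell types in liver were read in the same arrays. The summed signal (log2) of 9 hepatocyte markers ran from 15.66 to 15.71 on the regular diet, from 15.61 to 15.69 on the high-fat diet and from 15.70 to 15.72 with extract, and Cps1, a mitochondrial urea cycle enzyme on that list, fell on the diet (-0.66 ± 0.10, adjusted p = 0.0224). Of the 9, 6 were higher on the diet (median 0.07), with Asgr1 at 0.26 ± 0.07, adjusted p = 0.127. For 7 sinusoidal endothelial markers it ran from 10.51 to 10.70, from 10.21 to 10.47 and from 10.50 to 10.79, so that the high-fat diet arrays were lowest. Of the 7, 5 were lower on the diet and none passed, with Kdr nearest (-0.47 ± 0.11, adjusted p = 0.0744). Lyve1 was the largest difference in the other direction (0.52 ± 0.19, adjusted p = 0.282). Kdr stood at 0.42 ± 0.11, adjusted p = 0.591 for extract on the high-fat diet. For 7 stellate markers it ran from 10.55 to 10.88, from 10.51 to 10.59 and from 10.60 to 10.76, and 2 collagen genes rose on the diet. They were Col3a1 at 1.14 ± 0.14, adjusted p = 0.0115 and Col1a1 at 0.85 ± 0.12, adjusted p = 0.0152. For extract on the high-fat diet Col3a1 stood at -1.15 ± 0.14, adjusted p = 0.0975 and Col1a1 at -1.05 ± 0.12, adjusted p = 0.0851. These 2 were the only stellate markers lower in that comparison. The other 5 of the 7 were higher, with Lrat at 0.57 ± 0.12, adjusted p = 0.427 (limma), and the list median was 0.16. Of the 7 stellate markers 3 were lower on the diet, Dcn most (-0.38 ± 0.11, adjusted p = 0.149). Of 8 Kupffer cell, 4 bile duct, 6 lymphocyte, 5 neutrophil, 4 white fat and 4 pancreas markers none passed in any comparison. Of the last 5 lists 2, 5, 5, 3 and 3 markers lay under the median gene mean. The part of cell composition in the subunit differences was not tested.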

How the data were processed

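Liver RNA of 9 mouse samples was measured on whole-transcript arrays. The authors deposited log2 expression values per probe set, normalized with RMA by the oligo package, as the submitters' processing notes say. The labels name no build for the authors' own probe annotation. Exactly equal values in 2 or more arrays occurred in 34 members and in 56.9% of all genes. Of the probe sets 23521 had 1 gene symbol, 1814 several and 16010 none, and a gene was read from its single-symbol probe set with the highest mean. All 22180 genes and 9 arrays were fitted together with limma 3.58.1 in R 4.3.3 (6 residual degrees of freedom plus 3.28 prior), with Benjamini-Hochberg adjustment over all genes and a two-sided threshold of 0.05. The code was tested on simulated data. An exact permutation test of 3 against 3 arrays cannot go below p = 0.1. Symbols (88 of 88 member probe sets matched by gene ID) and promoters came from RefSeq on GRCm38.p6. Members and lists were chosen with earlier results of these data known. Values per array are given for members past the threshold, the 3 with the smallest p in each comparison and complex, the brightest and dimmest of a complex and paired isoforms (ranges for dim ones). Genes named from the lists passed the threshold or were among those with the smallest p in a comparison, with Ppargc1a and Cycs, and Tfam and Fh1 were added after their values were seen. Alternatives covered the filter, the variance model, scaling, probe choice, the threshold and leaving out each array. No red blood cell marker was used here.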

Additional observations from a re-analysis of the deposited data

How the results depend on the processing

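The members' median log2 fold change kept its direction in every alternative for the diet (-0.13 to -0.08) and for extract against the regular diet (-0.15 to -0.11), and ran from -0.05 to 0.00 for extract against the high-fat diet. The count of members past the threshold for the diet, 1, was 4 at an adjusted p under 0.10, 4 with a trended, robust variance (Cox5a, Ndufa6, Uqcrb and Uqcrh), 5 over genes at or above the median mean (these and Cox7a2), 0 in the 6 arrays compared alone, and 0 to 0 when any array was left out. It was also 1 with averaged probe sets, renewed quantile scaling, a median shift or array weights. Calls over all genes moved too, from 297 of 22180 to 439 with the trended variance. They were 597 of the 11090 brighter genes, which hold 72 members, and 15 in the 6 arrays alone. For extract against the regular diet the count of members, 0, was 2 at an adjusted p under 0.10, 1 with the trended variance and 3 over brighter genes, and for extract against the high-fat diet it was 0 throughout. Over all genes the calls for extract against the regular diet went from 98 to 143 with the trended variance and 232 over brighter genes. Uqcrb, at 0.07 for extract against the high-fat diet, reversed to -0.0089 without high-fat diet replicate 1, and leaving out single arrays moved it from -0.0089 to 0.13. With the replicate number as a block 0 members passed for the diet (Cox5a adjusted p = 0.0842). The labels do not pair equal numbers, and correlations of same-numbered residuals ran from -0.05 to 0.17. The median standard error of a member's difference was 0.08, over 3 arrays a group.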
